A study of Rattus norvegicus with 28 samples.

Results

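Potassium channel genes were followed through the amygdala of rat pups that had been trained with an odor and a shock. The set holds all 66 genes whose symbol in the authors' deposited table starts with Kcn. Each gene is read by the probe set (a group of short probes against one transcript) with the highest mean over all arrays, chosen from 94 Kcn probe sets among the 15866 that were measured on every array. Of the 66 genes, 10 stayed under the 25th percentile of their array on all arrays and are called low here.

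The study measured total RNA of the amygdala of Rattus norvegicus pups on expression arrays, 1 sample per array, directly after a training session of 45 min. Peppermint odor was given 11 times for 30 s each, with tail shocks of 1 s at 0.5 mA. In paired pups the shock fell on the end of the odor, and in unpaired controls it came 2 min after the odor. Groups were compared for a pairing effect, the title of the series naming dopamine in the infant amygdala as its topic. The 6 groups were day 8 pups given saline (7 paired and 7 unpaired arrays), day 8 pups given corticosterone (3 and 3), the main glucocorticoid of the rat, and untreated day 12 pups (4 and 4). Every group, controls included, received odor and shock, and a group without shock was not analysed here. Strain and sex are not given in the sources used here, and single pups and pools are not told apart in the labels, which leaves p-values to measure the spread between these samples.

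Potassium channels let potassium ions leave or enter a cell along their gradient. They set the resting potential, repolarise the action potential and limit repetitive firing. Voltage-gated (Kv) channels open on depolarisation and are tetramers of pore-forming alpha subunits. Silent Kv subunits form no channel alone and modify others. Inward rectifiers (Kir) and tandem pore domain channels (K2P) carry resting and background currents, calcium-activated channels follow the action potential, and auxiliary subunits tune gating and surface expression. In the amygdala, as elsewhere in the forebrain, several of these currents mature after birth.

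The arrays came in 2 designs, a large one for replicates 3 and 4 with saline and at day 12 (8 arrays) and a small one for the remaining 20. Array medians were 6.05 to 6.19 on the log2 scale for saline, 5.06 to 5.09 for corticosterone and 6.38 to 6.46 for day 12, so that levels of different conditions are not on one log2 scale. Levels across conditions are therefore given as within-array percentiles (0 for the lowest, 100 for the highest of the 15866 probe sets on that array), each array design apart. A percentile ranks probe sets of unlike probes, so a level is read for 1 gene across arrays and not compared between genes. Where genes are ordered by points or lists are averaged, equal points need not mean equal changes in RNA. Of neuron markers, Snap25, Eno2 and Tubb3 lay between the 90.2 and 99.6 percentile on all arrays. The most alike pair of arrays had a correlation of 0.998, and 0 pairs held identical values.

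**Figure D1:**
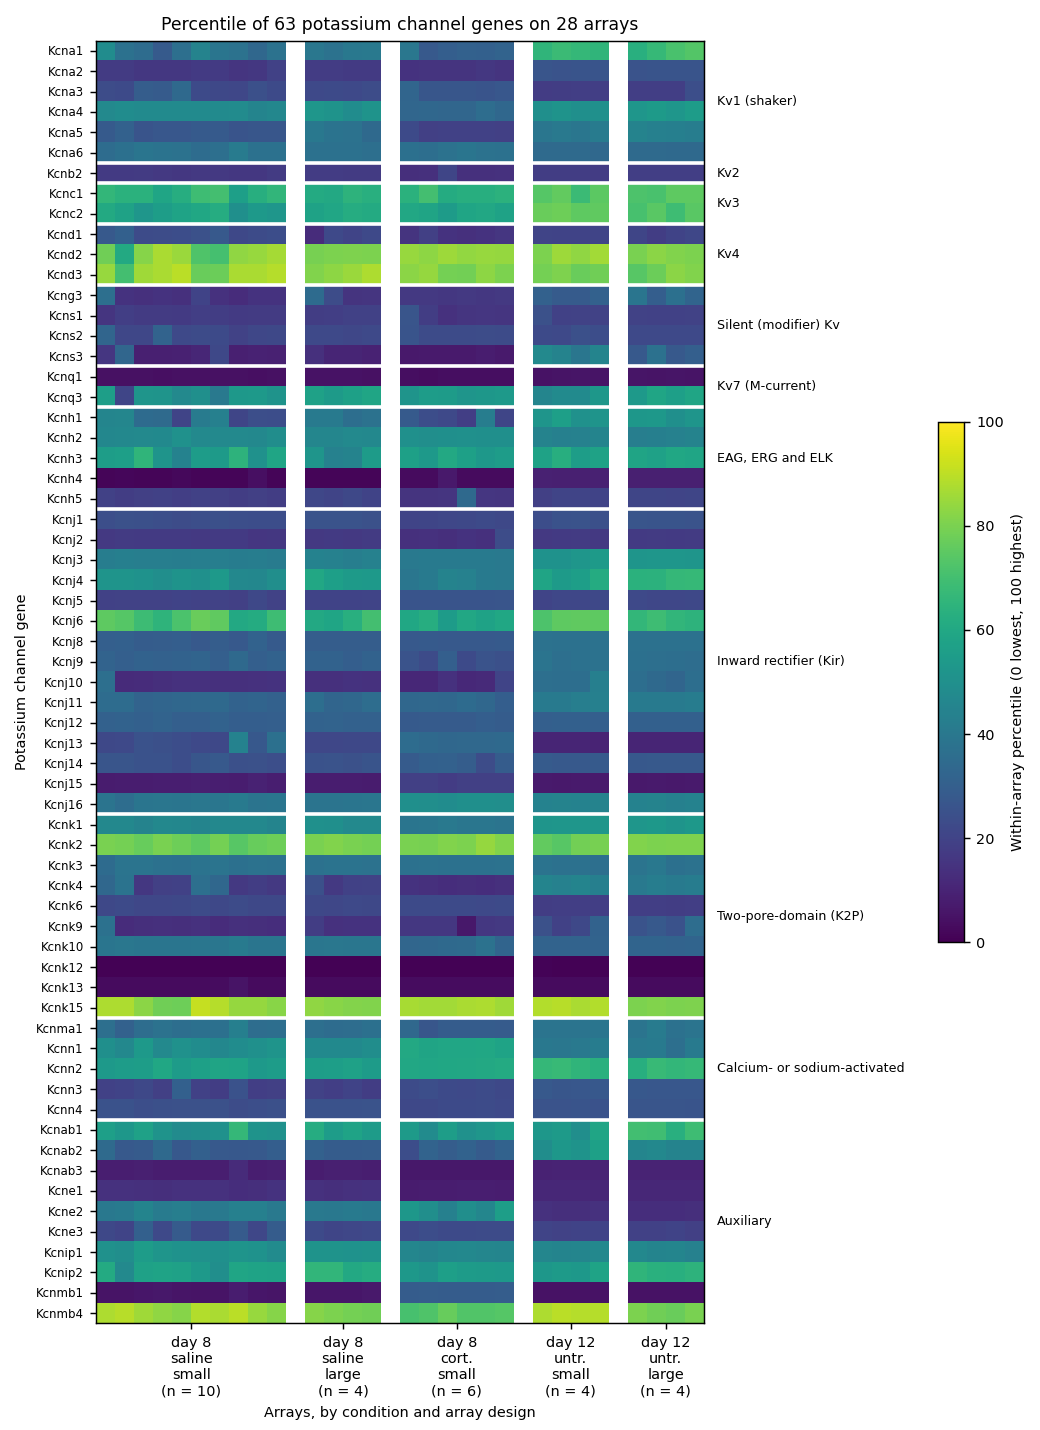
Within-array percentile of 63 of the 66 potassium channel genes (rows, by subfamily) on 28 arrays (columns, by condition and array design, paired arrays before unpaired ones), with colour from 0 to 100. Most genes keep 1 shade across a row. Kcna1, Kcns3, Kcnj10 and Kcnk4 are brighter on the day 12 arrays, Kcne2 and Kcnj13 darker, and Kcnmb1 stands out on the corticosterone arrays.

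Day 12 was compared with day 8 saline. By limma on percentiles, with training as a covariate and adjustment over all probe sets, 42 of the 66 genes differed on the small design, where 52.8% of all probe sets did. Of these, 30 were higher and 12 lower at day 12 (28.6% and 24.2% of all probe sets). On the large design 49 genes differed (67.2% of all probe sets), 33 higher and 16 lower (36.6% and 30.6%). On both designs and in one direction, 27 genes were higher at day 12 (40.9%, against 23.8% of all probe sets) and 10 were lower (15.2%, against 20.1%), 37 in all (43.9% of all probe sets). The ages did not overlap on either design for 19 higher and 12 lower genes (17.6% and 15.5% of all probe sets). The median gene moved by 1.63 points on the small and 0.89 points on the large design against 0.17 for all probe sets on either. Large differences were fewer. A rise of at least 10 percentile points on both designs was called for 8 genes (12.1% of the 66, against 3.05% of all probe sets). With the replicate number as a block 5 of these were left, Kcnk4, Kcnh1 and Kcng3 differing by 9.06, 8.71 and 8.45 points on the small design, Kcng3 no longer past the test there (adjusted p = 0.0758). A filter at a mean log2 of 4 also left 5, since it removed Kcns3, Kcnj10 and Kcng3 from the test. A fall of that size was called for 2 genes (2.89% of all probe sets, and 5.94% in either direction). Age, saline injection and the shift in array medians cannot be told apart in this comparison, and neither can fewer cells of a type and less RNA per cell.

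The direction of the balance depended on the scale. On log2 values minus the array median, where the median probe set moved by -0.27 on the small and -0.24 on the large design, 18 of the genes were called higher on both designs and 29 lower. Of all probe sets called on that scale, 27.8% were higher on the small and 30.2% on the large design. Of the called potassium channel genes, 38.8% and 40.4% were higher, above the share of all probe sets as on percentiles. Of the 27 genes higher by percentile, 20 kept the sign and 17 the call on that scale, and 6 were called lower there. All 10 lower genes kept their call, but most probe sets called on that scale were lower, so this is a weak check. The 7 that lost their sign were Kcnn3, Kcnj14, Kcns1, Kcnj5, Kcnb2, Kcnn4 and Kcnq1. Each other gene called higher or lower on both designs kept its sign, and genes not called on both designs are outside this check.

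**Figure D2:**
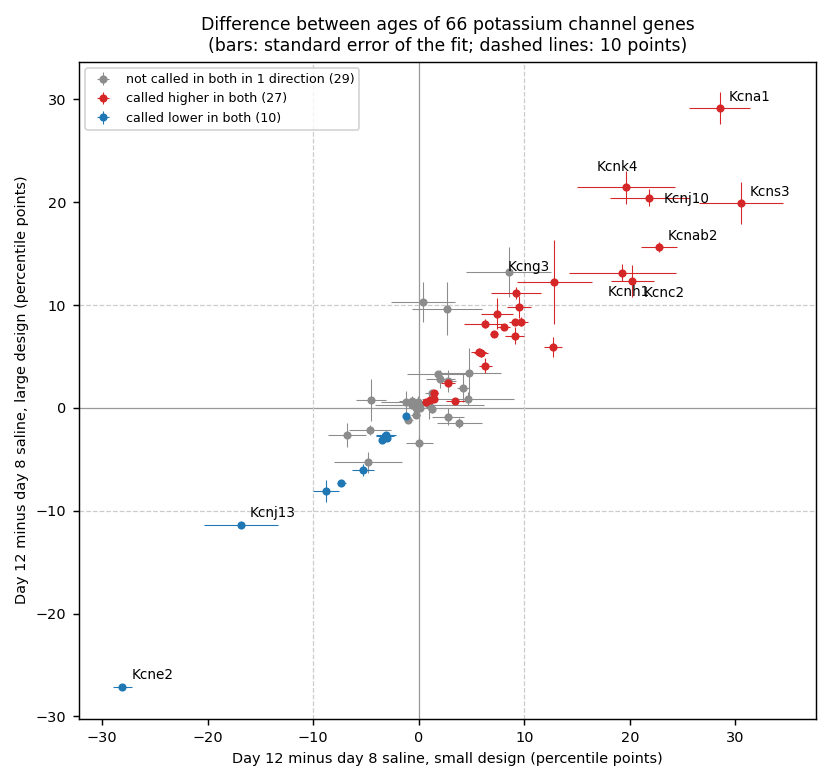
Day 12 minus day 8 saline in percentile points, small design (x axis) against large design (y axis), for 66 genes, with standard errors of the fit as bars. Red genes (27) were called higher on both designs, blue genes (10) lower and grey genes (29) neither, and dashed lines mark 10 points. The named genes are the 8 and 2 beyond 10 points on both axes.

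Among shaker-type Kv1 subunits, the axonal low-threshold channels, Kcna1 rose most. At day 8 its percentile on the small design was 28.2 at the lowest, 37.5 at the median and 48.8 at the highest of 10 saline arrays, and at day 12 it was 65.6, 68.0, 66.7 and 65.4. On the large design it was 39.8, 37.7, 39.9 and 40.4 at day 8 and 62.9, 67.1, 71.3 and 73.2 at day 12. Every day 12 array lay above every day 8 array of its design. The difference was 28.5 points (SE 2.89, limma adjusted p = 3.28e-06) and 29.2 points (SE 1.57, adjusted p = 7.11e-06), and 0.158% of all probe sets rose as far on both designs. Kcna2, its frequent partner beside the nodes of Ranvier, went from 15.6 to 19.3 (median 16.7) to 25.6 to 26.3 on the small design, without overlap. It rose by 9.08 points (SE 0.54) there and by 8.41 (SE 0.17) on the large design. On the log2 scale, however, all of its arrays read 2.31 to 2.77, and on log2 minus the array median its call was not kept. Kcna5 rose by 12.7 (SE 0.85) and 5.90 points (SE 0.96). Its saline arrays lay at 25.8 to 31.0 on the small and at 34.1 to 40.2 on the large design, so the day 8 arrays of the 2 designs did not overlap. Kcna6 fell by 3.10 and 2.62 points, while its other probe set was not called in one direction on both designs. Kcna4, the inactivating member, was called on the small design alone (2.82 points, SE 0.69, and 2.63, SE 1.08, adjusted p = 0.069). Kcna3 was lower by 6.82 points (SE 1.81) on the small design and by 2.60 (SE 1.17, adjusted p = 0.0885) on the large one, where it was not called.

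The beta subunit Kcnab2, which binds Kv1 channels, also rose. Its saline percentiles were 27.5 to 34.7 (median 28.4) on the small design and 31.0, 29.2, 29.0 and 29.6 on the large one. At day 12 they were 49.0, 52.8, 51.4 and 56.7, and 45.4, 46.6, 44.7 and 44.6. The ages did not overlap. The differences were 22.8 points (SE 1.66, limma adjusted p = 1.21e-07) and 15.6 points (SE 0.48, adjusted p = 3.96e-07). Kcnab1, another beta subunit, was called on the large design alone (10.3 points, SE 1.94), against 0.42 points (SE 3.01) on the small one.

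Kv3 subunits carry the fast currents of fast-spiking neurons. Kcnc2 lay at 49.9 to 62.1 (median 56.6) on the small and at 57.6, 59.1, 61.8 and 60.9 on the large design at day 8. At day 12 it lay at 77.3, 78.0, 75.3 and 75.5, and at 70.9, 74.3, 69.0 and 74.6, above all day 8 arrays of each design. It rose by 20.2 points (SE 2.04) and 12.3 points (SE 1.56). Of its 6 probe sets, 5 were called higher on both designs, by 2.86 to 24.0 points, and the sixth, at the 2.66 to 3.72 percentile in group means, was called lower by 1.01 and 0.99 points. Kcnc1 rose by 9.22 (SE 2.38) and 11.2 points (SE 0.57), and on the small design the day 12 array of unpaired replicate 1, at 68.4, lay within the saline range of 56.4 to 70.3. Beside this group, 2 of 6 interneuron markers were called higher on both designs, Pvalb by 25.1 and 20.4 points and Vip by 20.1 and 12.4. The other 4, Sst, Gad1, Gad2 and Npy, read lower on both designs and were not called on both. Of these Sst differed by -3.88 and -1.29 points, and Gad2 by -1.26 on the small design, while it fell by 10.9 on the large one (adjusted p = 2.16e-05). The median of the 6 was -0.998 and -0.77 points, and their mean percentile went from 69.1 to 74.6 at day 8 to 77.3 to 80.3 at day 12 on the small and from 73.7 to 75.2 to 77.2 to 78.4 on the large design. Their part in the change of Kv3 genes was not tested.

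Of the Kv4 genes, which carry the A-type current of dendrites, 0 of 3 were called in one direction on both designs. Kcnd2 differed by 4.69 (SE 4.38) and 0.89 points (SE 0.63), Kcnd3 by -4.80 (SE 3.23) and -5.28 (SE 1.02, called on the large design). Kcnip1, a cytoplasmic subunit of Kv4 channels, fell from 48.3 to 55.2 (median 50.8) to 45.2 to 46.7 on the small design, without overlap, and by 5.27 (SE 1.00) and 6.01 points (SE 0.59). A second Kcnip1 probe set was not called (0.96 and 0.20 points).

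Silent subunits, which join Kv2 channels, held 2 of the large rises. Kcns3 lay at 8.73 to 32.9 (median 9.39) in 10 small-design saline arrays and at 14.02, 10.3, 10.4 and 9.63 in the large-design ones. At day 12 it lay at 47.1, 44.7, 39.3 and 45.2, and at 28.1, 37.4, 28.1 and 30.4. The ages did not overlap within a design, and saline paired replicate 2 (32.9) was the highest at day 8. The rise was 30.5 points (SE 3.98, limma adjusted p = 3.39e-05) and 19.9 points (SE 2.04, adjusted p = 1.72e-04). The log2 values of its 14 saline arrays were 2.06 to 3.16, and those at day 12 were 2.90 to 5.90. Kcng3 rose by 12.9 (SE 3.52) and 12.2 points (SE 4.10), but its ages overlapped on both designs, since saline paired replicates 1 (36.4) and 3 (35.0) stood with the day 12 arrays (28.5 to 38.8). Its call on the large design (adjusted p = 0.0346) was kept in 2 of 8 runs without 1 array, and the adjusted p reached 0.0921. Kcns2 differed by -0.64 and 0.31 points and was not called.

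Of the EAG, ERG and ELK genes, Kcnh1, the mammalian ether-a-go-go channel, rose. It lay at 20.7 to 45.9 (median 34.7) at day 8 and at 52.2, 56.5, 50.6 and 51.9 at day 12 on the small design, and at 41.3, 40.7, 36.0 and 37.6 and then 52.8, 53.5, 49.8 and 52.3 on the large one. The ages did not overlap, while the small-design saline arrays ranged widely. The rise was 19.3 points (SE 5.05, limma adjusted p = 0.00628) and 13.2 points (SE 0.78, adjusted p = 1.21e-05). Against saline replicates 1 and 2 alone it was 8.71 points and against replicates 5 to 7 alone 26.3 points, as these replicate sets differed by 17.6 points. Kcnh2, the ERG channel, fell by 3.19 and 2.76 points. Kcnh4, at the bottom of the arrays, rose by 7.17 points (SE 0.39) and 7.16 points (SE 0.06), from 1.39 to 3.91 to 8.60 to 9.19. Kcnq3, a Kv7 subunit of the M-current, differed by 1.01 points (SE 5.17) and 0.27 (SE 1.31) and was not called. Its other probe set was called higher on both designs.

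**Figure D3:**
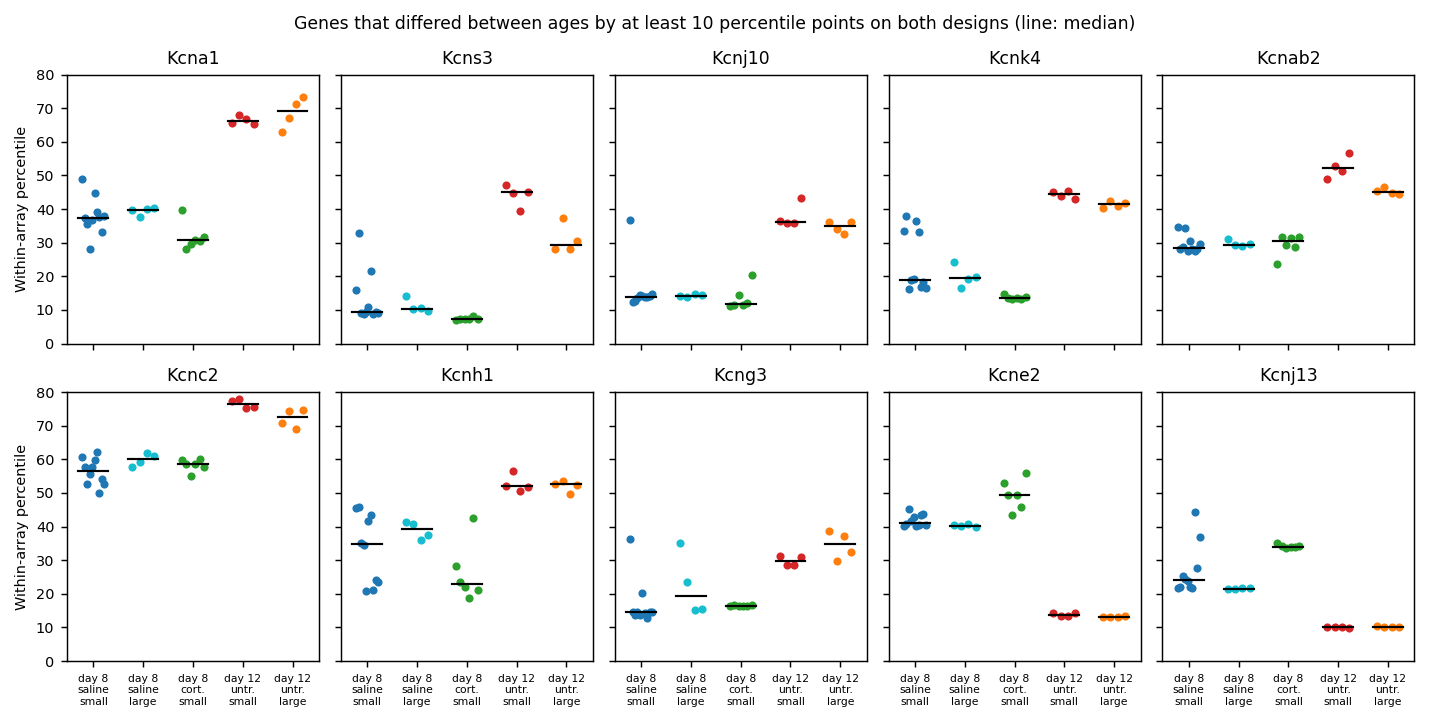
Within-array percentile of the 8 genes that rose and the 2 that fell by at least 10 points on both designs, 1 point per array, with the median of each condition and design as a line (10, 4, 6, 4 and 4 arrays from left to right). Kcna1, Kcnab2 and Kcnc2 separate by age on both designs, single saline arrays of Kcnj10 (36.7) and Kcng3 (36.4) reach the day 12 level, and Kcne2 is lowest at day 12.

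Of the 15 inward rectifiers, the largest subfamily, 9 were called higher on both designs and 2 lower, against 23.8% and 20.1% of all probe sets. The 9 include Kcnj5 and Kcnj14, which lost their sign on log2 minus the array median. Kcnj10, the main potassium-buffering channel of astrocytes and also present in oligodendrocytes, rose most. Its saline percentiles were 12.5 to 36.7 (median 13.96) on the small and 14.03, 13.97, 14.8 and 14.3 on the large design, and at day 12 they were 36.5, 35.9, 36.0 and 43.2, and 36.2, 34.0, 32.6 and 36.3. One day 8 array, saline paired replicate 1 (36.7), stood among the day 12 arrays, and the next highest was 14.8. The rise was 21.9 points (SE 3.76, limma adjusted p = 3.59e-04) and 20.5 points (SE 0.87, adjusted p = 2.13e-06). Kcnj16, which forms channels with Kcnj10, rose by 5.69 (SE 0.73) and 5.48 points (SE 0.33).

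Both glial types that carry Kcnj10 also had higher markers at day 12. All 8 oligodendrocyte markers were called higher on both designs (median 38.1 and 40.5 points), and their mean percentile was 52.4 to 64.2 in day 8 saline arrays of both designs and 87.0 to 93.6 at day 12. Of 7 astrocyte markers, 4 were called higher on both designs, Slc1a2, an astrocytic glutamate transporter, by 36.4 and 35.8 points and Gfap by 9.37 and 10.6, while Aqp4 differed by 0.27 and -1.81 points and Aldh1l1 by -1.72 and -0.43. The mean of the astrocyte list was 75.0 to 81.3 at day 8 and 81.8 to 84.7 at day 12. Kcna1 and Kcna2, the partners at myelinated axons, rose beside these lists too, and the part of glial cells in the rise of Kcnj10, Kcna1 or Kcna2 was not tested.

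Potassium channels gated by G proteins or ATP followed with smaller rises. Kcnj3, a G-protein-gated subunit, went from 41.7 to 43.1 (median 42.6) to 51.1, 51.1, 52.4 and 54.4 on the small design, without overlap, a rise of 9.71 points (SE 0.64), and by 8.41 points (SE 0.46) on the large one. Of the 3 Kcnj3 probe sets, 2 were called higher on both designs. Kcnj9, a partner of Kcnj3, rose by 5.92 and 5.31 points. Kcnj6 differed by 4.78 (SE 3.03) and 3.36 points (SE 2.43) and was not called. Of its 4 probe sets, 1 was called higher and 1 lower on both designs. Kcnj8 and Kcnj11, the pores of ATP-sensitive channels, rose by 8.04 and 7.90 and by 9.08 and 7.04 points. Of their regulatory subunits, Abcc9 rose by 5.05 and 8.64 points, whereas Abcc8 differed by 0.81 and 2.93 points and was not called. The other Kcnj11 probe set was not called in one direction on both designs. Kcnj4, a strong rectifier of forebrain neurons, lay at 46.4 to 53.6 and 54.1 to 60.0 at day 8 and at 54.3 to 61.6 and 63.8 to 66.9 at day 12 on the small and large design, a rise of 7.43 (SE 1.53) and 9.19 points (SE 1.53). Its second probe set rose by 20.5 and 16.7 points.

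Promoter windows are shown for a gene that rose, a gene whose level differed most between saline replicates 1 and 2 and replicates 5 to 7, and a gene that fell, since these carry the differences between ages and between arrays. They are from RefSeq (build GRCr8), cover 250 bases before to 50 after the gene start, read 5′ to 3′ on the gene's strand, and have matches to 5 motifs in capitals. The motifs, searched on both strands, were a GC box (letters GGGCGG) and a CCAAT box named for its letters. A TATA box was searched as TATAAA. The core of a cyclic AMP response element (CRE core) was searched as TGACG. An E-box was searched as CACGTG, and matches to different motifs may share letters.
Kcnj10 (chr13:87334260-87334559, plus strand): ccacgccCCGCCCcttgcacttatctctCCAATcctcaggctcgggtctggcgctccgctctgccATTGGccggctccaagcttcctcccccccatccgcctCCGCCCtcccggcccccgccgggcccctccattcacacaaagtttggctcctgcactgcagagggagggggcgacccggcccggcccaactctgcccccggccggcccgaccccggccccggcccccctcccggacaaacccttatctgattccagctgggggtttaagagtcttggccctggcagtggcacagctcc
Kcnh1 (chr13:106252966-106253265, plus strand): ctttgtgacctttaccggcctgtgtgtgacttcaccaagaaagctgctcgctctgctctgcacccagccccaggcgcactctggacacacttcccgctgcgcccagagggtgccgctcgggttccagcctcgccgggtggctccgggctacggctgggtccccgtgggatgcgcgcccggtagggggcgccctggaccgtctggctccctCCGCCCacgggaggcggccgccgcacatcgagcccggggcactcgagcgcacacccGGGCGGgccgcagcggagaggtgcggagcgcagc
Kcnj13 (chr9:95518937-95519236, minus strand): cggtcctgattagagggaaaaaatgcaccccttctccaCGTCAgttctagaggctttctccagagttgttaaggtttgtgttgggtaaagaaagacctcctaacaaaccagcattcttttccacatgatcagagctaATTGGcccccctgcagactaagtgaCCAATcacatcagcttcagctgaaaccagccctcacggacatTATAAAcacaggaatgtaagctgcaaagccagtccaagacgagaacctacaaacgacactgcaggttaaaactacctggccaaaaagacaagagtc
Kcnj10 and Kcnh1 hold 2 GC boxes each and Kcnj10 also 2 CCAAT boxes, at 70.3% and 72.7% G and C. Kcnj13 holds 2 CCAAT boxes, 1 TATA box and 1 CRE core and 0 GC boxes, at 46.3% G and C. Of the 66 genes, 42 matched an entry of the promoter table. A GC box was present in 47.6% of them (36.0% of 27457 genes in the table), a CCAAT box in 31.0% (39.6%), a TATA box in 4.76% (15.3%), a CRE core in 19.0% (23.0%) and an E-box in 2.38% (7.08%). Of the matched genes, 20 were higher and 5 lower at day 12 on both designs. Among the higher and lower genes, a GC box was held by 10 and 1, a CCAAT box by 7 and 3 and a TATA box by 0 and 1. A CRE core was held by 2 and 3 and an E-box by 1 and 0. These splits were not tested. A match describes letters in this window and shows no bound site.

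Background channels moved in both directions. Kcnk4, a mechanically and lipid-gated K2P channel also found at nodes of Ranvier, lay at 16.1 to 37.9 (median 19.0) on the small and at 24.3, 16.6, 19.2 and 19.7 on the large design at day 8. At day 12 it lay at 45.0, 43.8, 45.3 and 43.0, and at 40.4, 42.4, 40.8 and 41.9. The ages did not overlap, and the 4 highest saline arrays, at 33.2 to 37.9, were replicates 1 and 2. The rise was 19.6 points (SE 4.64, limma adjusted p = 0.00338) and 21.5 points (SE 1.59, adjusted p = 3.47e-05), or 9.06 points against saline replicates 1 and 2 alone and 26.7 against replicates 5 to 7. Kcnk1 rose by 6.30 and 4.09 points. Kcnk10, a relative of Kcnk4, fell from 38.8 to 40.8 (median 39.0) to 32.0, 31.9, 32.0 and 31.9 on the small design and from 39.3, 39.6, 39.3 and 39.4 to 32.3, 32.1, 31.9 and 32.1 on the large one. Its ages were wide apart against their spread, with falls of 7.35 (SE 0.43) and 7.30 points (SE 0.21), and its second probe set fell by 6.35 and 5.76 points. Kcnk6 fell by 3.43 and 3.09 points, while its other probe set, at the bottom of the arrays, rose by 1.01 and 1.22. Kcnk9, an acid-sensitive channel, rose by 13.2 points (SE 2.42) on the large design and differed by 8.54 (SE 4.03, adjusted p = 0.0929) on the small one. Kcnk2, related to Kcnk10, differed by -0.63 and 0.71 points and was not called.

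Calcium-activated channels of small conductance, which carry the current after an action potential, split. Kcnn2 went from 54.1 to 59.4 (median 55.4) and 55.7, 56.1, 57.2 and 55.05 to 66.6, 67.2, 65.5 and 63.5 and 62.7, 67.3, 66.3 and 67.0, above every day 8 array of its design. It rose by 9.49 points (SE 1.15) and 9.81 points (SE 1.11). Kcnn1 went the other way, from 46.3 to 53.6 (median 49.4) and 47.4, 47.3, 47.4 and 48.9 to 40.2, 39.7, 40.3 and 42.0 and 40.3, 40.8, 36.7 and 40.8. It fell by 8.79 points (SE 1.26) and 8.09 points (SE 1.04). Kcnma1, the large-conductance pore, differed by 2.07 (SE 1.39) and 2.81 points (SE 0.89, called on the large design).

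The 2 large falls were of Kcne2 and Kcnj13, genes known for their place in epithelia such as the choroid plexus. Kcne2, an accessory subunit of Kcnq1 and Kcnh2 channels, lay at 40.1 to 45.2 (median 41.1) on the small and at 40.3, 40.1, 40.8 and 39.9 on the large design at day 8. At day 12 it lay at 14.3, 13.5, 13.3 and 14.2, and at 13.1, 13.2, 13.2 and 13.3, so that no value of one age came near the other. The fall was 28.1 points (SE 0.94, limma adjusted p = 3.79e-11) and 27.1 points (SE 0.21, adjusted p = 6.48e-10), and 0.0756% of all probe sets fell as far on both designs. Kcnj13, an inward rectifier, lay at 21.7 to 44.3 (median 24.0) on the small and at 21.4, 21.4, 21.6 and 21.9 on the large design at day 8. At day 12 it lay at 10.3, 10.2, 10.2 and 9.95, and at 10.3, 10.2, 10.2 and 10.2. All day 12 arrays were below all day 8 arrays, and the highest day 8 array was saline unpaired replicate 5. The fall was 16.8 points (SE 3.49, limma adjusted p = 0.00141) and 11.3 points (SE 0.11, adjusted p = 1.85e-09). Its log2 values, however, were low on most arrays. They were 2.49 to 5.13 in small-design saline, 2.59 to 2.62 in large-design saline and 2.02 to 2.13 at day 12. The filter at a mean log2 of 4 removed Kcnj13 from the test.

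Other choroid plexus markers did not pass the test in this direction. Of 4 measured, Ttr, the transthyretin of choroid plexus epithelium, differed by 0.22 points (SE 0.15) on the small and by -12.8 points (SE 8.09) on the large design. Folr1, a folate receptor, differed by 2.63 (SE 3.05) and -9.22 points (SE 5.98), and Aqp1, a water channel, by 3.34 (SE 3.75) and -8.09 points (SE 8.47). Kl was called higher by 1.07 and 0.53 points. Their mean percentile was 46.5 to 54.9 at day 8 and 50.6 to 55.8 at day 12 on the small design, and 40.2 to 55.2 and 27.8 to 46.8 on the large one. The mean of these markers overlapped between the ages on both designs, and Ttr, Folr1 and Aqp1 each read lower at day 12 on the large one. The part of choroid plexus tissue in the dissections was not tested.

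**Figure D4:**
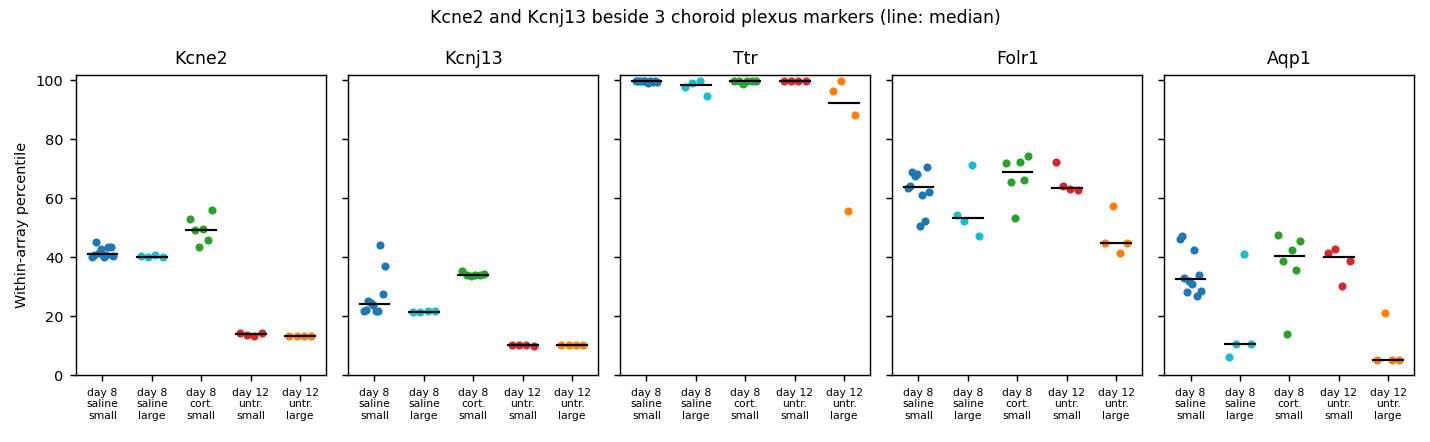
Within-array percentile of Kcne2, Kcnj13 and the choroid plexus markers Ttr, Folr1 and Aqp1, 1 point per array, by condition and array design. Kcne2 and Kcnj13 are low on all 8 day 12 arrays, Folr1 and Aqp1 scatter within each condition and Ttr stays near the top of the small-design arrays. Lines mark medians.

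The genes that work beside these channels were read from a list of sodium pump, chloride transporter, anchoring and regulatory genes. Of 24 such genes 18 were measured, and 8 were called higher and 0 lower on both designs, against 23.8% and 20.1% of all probe sets. They included Dlg1, a scaffold of Kv1 channels, which rose by 11.5 and 12.7 points, Ank3, an anchor of the axon initial segment, the pump subunits Atp1b1 and Atp1b2, the transporter Slc12a2 and Abcc9. The mean percentile of the 18 was 71.2 to 75.3 at day 8 and 75.8 to 77.3 at day 12 on the small design.

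Corticosterone and saline pups of day 8 were compared on the small design, with 6 and 10 arrays. By limma on percentiles, 12 of the 66 genes were higher and 23 lower in corticosterone pups, where 27.8% and 34.2% of all probe sets were, and the median gene differed by -1.01 points against -0.19. At least 10 points separated 3 higher genes (4.74% of all probe sets) and 4 lower ones (4.39%, and 9.13% in either direction). Corticosterone and the shift in array medians between the treatments cannot be told apart. Markers of neighbouring regions differed as well. Of 4 thalamus and hypothalamus markers, Hcrt and Oxt were called higher with corticosterone, by 14.3 points each, and the mean percentile of the list was 70.3 to 73.1 against 48.7 to 69.5 with saline, without overlap. Of 6 striatal projection neuron markers 2 were called higher, Adora2a and Rgs9, the median of the list was 5.18 points, and its mean percentile overlapped, at 56.3 to 72.7 against 53.2 to 68.0. Their part in the differences of potassium channel genes was not tested. The lower calls depended on the scale: on log2 minus the array median, where the median probe set moved by 0.28, 7 of the 23 kept their sign and 15 were called higher. Of the 12 higher genes 11 kept their sign and 10 their call. On that scale 64.0% of all called probe sets and 83.0% of the called genes were higher, so a kept higher call is a weak check.

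Among genes higher on both scales, Kcnmb1, a beta subunit of the large-conductance channel known from smooth muscle, differed most. It lay at 5.16 to 7.87 (median 5.58) in saline and at 28.9 to 29.5 (median 29.2) in corticosterone arrays, a difference of 23.4 points (SE 0.34, limma adjusted p = 1.93e-17). Its log2 values, however, were low on every array, at 1.91 to 2.09 in small-design saline and 2.97 to 3.03 in corticosterone arrays. Kcnj16 lay at 35.7 to 41.3 (median 39.0) and 48.7 to 49.8 (median 49.6), and was higher by 10.6 points (SE 0.61). Kcnj15, an inward rectifier that was low on all arrays, was higher by 10.4 points (SE 0.23). Kcnn1 lay at 46.3 to 53.6 and 58.0 to 60.4 and was higher by 9.73 points (SE 1.03), and Kcnj5, a G-protein-gated subunit, by 6.15 (SE 0.31). The groups did not overlap for these 5 genes, nor for others with far smaller differences, such as Kcnk12 (-0.17 points) and Kcnj3 (-1.70). The share of all probe sets without overlap between the treatments was not counted, so non-overlap does not set these genes apart. Kcnj5 too had low log2 values, at 2.40 to 2.54 in small-design saline and 2.82 to 2.88 in corticosterone arrays. Kcne2 was higher by 7.60 points (SE 1.60), with overlap. Kcnj13 was higher by 7.12 points (SE 2.88, limma adjusted p = 0.043), and this call was kept in 2 of 16 runs without 1 array, where the adjusted p reached 0.0932.

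Among genes lower on both scales, Kcna4 lay at 45.1 to 48.7 (median 47.9) in saline and at 33.0 to 35.7 (median 33.1) in corticosterone arrays. It was lower by 13.9 points (SE 0.62, limma adjusted p = 2.68e-11). Kcnmb4, the beta subunit of the large-conductance channel in neurons, lay at 81.8 to 89.6 (median 86.6) and 70.9 to 76.7 (median 72.9), and was lower by 12.8 points (SE 1.34). Neither gene overlapped between the treatments, which held for genes with small differences too, as above. Kcnj6, a G-protein-gated subunit, overlapped, at 60.3 to 77.2 and 55.1 to 62.4, and was lower by 10.7 points (SE 2.53). Kcnj4 was lower by 8.42 points (SE 1.14), and Kcnip1 by 5.19 (SE 0.82).

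Other lower calls turned with the scale. Kcnk4, Kcnd1, Kcna5 and Kcnma1 were lower by 11.0, 9.36, 7.81 and 7.14 points by percentile, and on log2 minus the array median the differences were 0.64, 0.81, 0.82 and 0.38, past the test for all but Kcnma1. Of the genes that rose by at least 10 points with age on both designs, Kcnk4 was thus called lower by percentile. The others did not pass the test between corticosterone and saline. Kcna1 differed by -6.12 points (SE 2.63, limma adjusted p = 0.0555), Kcns3 by -6.20 (SE 3.20, without overlap) and Kcnh1 by -7.49 (SE 4.92). Kcnj10 differed by -2.60 (SE 3.13), Kcng3 by -0.50 (SE 2.84), Kcnab2 by -0.30 (SE 1.44) and Kcnc2 by 2.01 (SE 1.75).

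The effect of pairing was tested inside each condition, within which array medians lay close together. In saline and at day 12 the arrays were of both designs, whose values were deposited in separate tables. In the rank product test, which ranks each probe set by its fold over all pairs of arrays and reports a percentage of false predictions (pfp, called under 0.05), 0 of the 66 genes were called in any of the 3 conditions. Of all probe sets 0.176% (28) were called in saline, 0.0252% (4) in corticosterone and 0.0504% (8) in day 12 pups. The authors' deposited table likewise called 0 of the 66. Limma on log2 values called 0 probe sets in each condition, and at an unadjusted p under 0.05 it counted 72, 449 and 73 probe sets with 1, 1 and 2 of the genes.

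Kcnh1 came nearest to the threshold at day 8 with saline. Its log2 level was 2.47 at the lowest, 4.43 at the median and 5.38 at the highest of 7 paired arrays, and 2.58, 3.65 and 4.84 in 7 unpaired arrays. The groups overlapped almost wholly, while in 6 of 7 pairs of the same replicate number the paired array was higher. The means were 4.17 ± 1.07 and 3.52 ± 0.94 (SD, n = 7 each), a difference of 0.65 (SE 0.49) or 1.57-fold, with a rank product pfp of 0.0571. With the replicate number as a block the pfp was 0.002, past the threshold, and limma with the block gave an adjusted p of 0.224. Without paired replicate 7 or unpaired replicate 2 the rank product test called it (pfp 0.0225 and 0.0287). The difference was 0.71, 0.75 and 0.54 in replicates 1 to 2, 3 to 4 and 5 to 7. Beside it, 2 of 6 striatal projection neuron markers were called higher in paired saline pups, and the mean log2 of the list was 7.34 to 9.06 in paired and 6.16 to 8.45 in unpaired arrays. Of the other lists, 1 of 8 oligodendrocyte and 1 of 4 thalamus and hypothalamus markers were called lower in paired saline pups. The part of these cell types and regions in the Kcnh1 difference was not tested.

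Kcnh1 at day 12 read 6.80, 7.38, 6.83 and 6.90 in paired and 6.52, 6.71, 6.39 and 6.78 in unpaired arrays on the log2 scale. The groups did not overlap, which held for 2 of the 66 genes and 0.485% of all probe sets. The difference was 0.38 (SE 0.16) and the rank product pfp 0.77. The striatal list, which read higher in paired saline pups (median 0.53), read lower in paired pups at day 12 (median -0.37, with 0 of 6 called). Other lists differed more at day 12. The choroid plexus markers had a median of 0.85 (1 of 4 called higher) and the thalamus and hypothalamus markers 0.86 (0 of 4 called). With corticosterone Kcnh1 differed by -0.33 (SE 0.40), beside a striatal median of -0.41 and a choroid plexus median of -0.46. Kcnj11 was the other gene without overlap at day 12, at 4.56, 4.57, 4.62 and 4.61 in paired and 4.99, 5.09, 4.69 and 4.80 in unpaired arrays. Its difference of -0.30 (SE 0.10) had a pfp of 0.856.

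Kcns3 at day 12 read 5.90, 5.47, 2.90 and 3.89 in paired and 4.19, 5.48, 2.91 and 3.01 in unpaired arrays. Replicates 1 and 2, on the small design, were the higher ones in both groups, and the groups overlapped. The means were 4.54 ± 1.39 and 3.90 ± 1.203 (SD, n = 4 each), with a pfp of 0.153. It was called without paired replicate 3 (pfp 0.0329) and without unpaired replicate 2 (pfp 0.0189).

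Of the remaining genes, Kcnj4 differed by 0.34 (SE 0.25), Kcng3 by 0.39 (SE 0.21), Kcnh3 by -0.28 (SE 0.45), Kcnq3 by -0.34 (SE 0.66) and Kcnj13 by -0.50 (SE 0.34) on the log2 scale between paired and unpaired saline pups. The Kcnj13 difference was 0.03, 0.02 and -1.203 in the 3 replicate sets. With corticosterone, Kcnh3 differed by 0.15 (SE 0.18), Kcne2 by -0.22 (SE 0.39) and Kcnh5, an EAG channel, by -0.32 (SE 0.23). In that condition 2 genes, Kcnj15 and Kcnj2, did not overlap, both lower in paired pups, against 6.96% of all probe sets. With 0% of probe sets, saline had 0 such genes. At day 12, Kcnab1 differed by 0.19 (SE 0.56), Kcnq3 by -0.39 (SE 0.47) and Kcnk9 by -0.33 (SE 0.22).

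**Figure D5:**
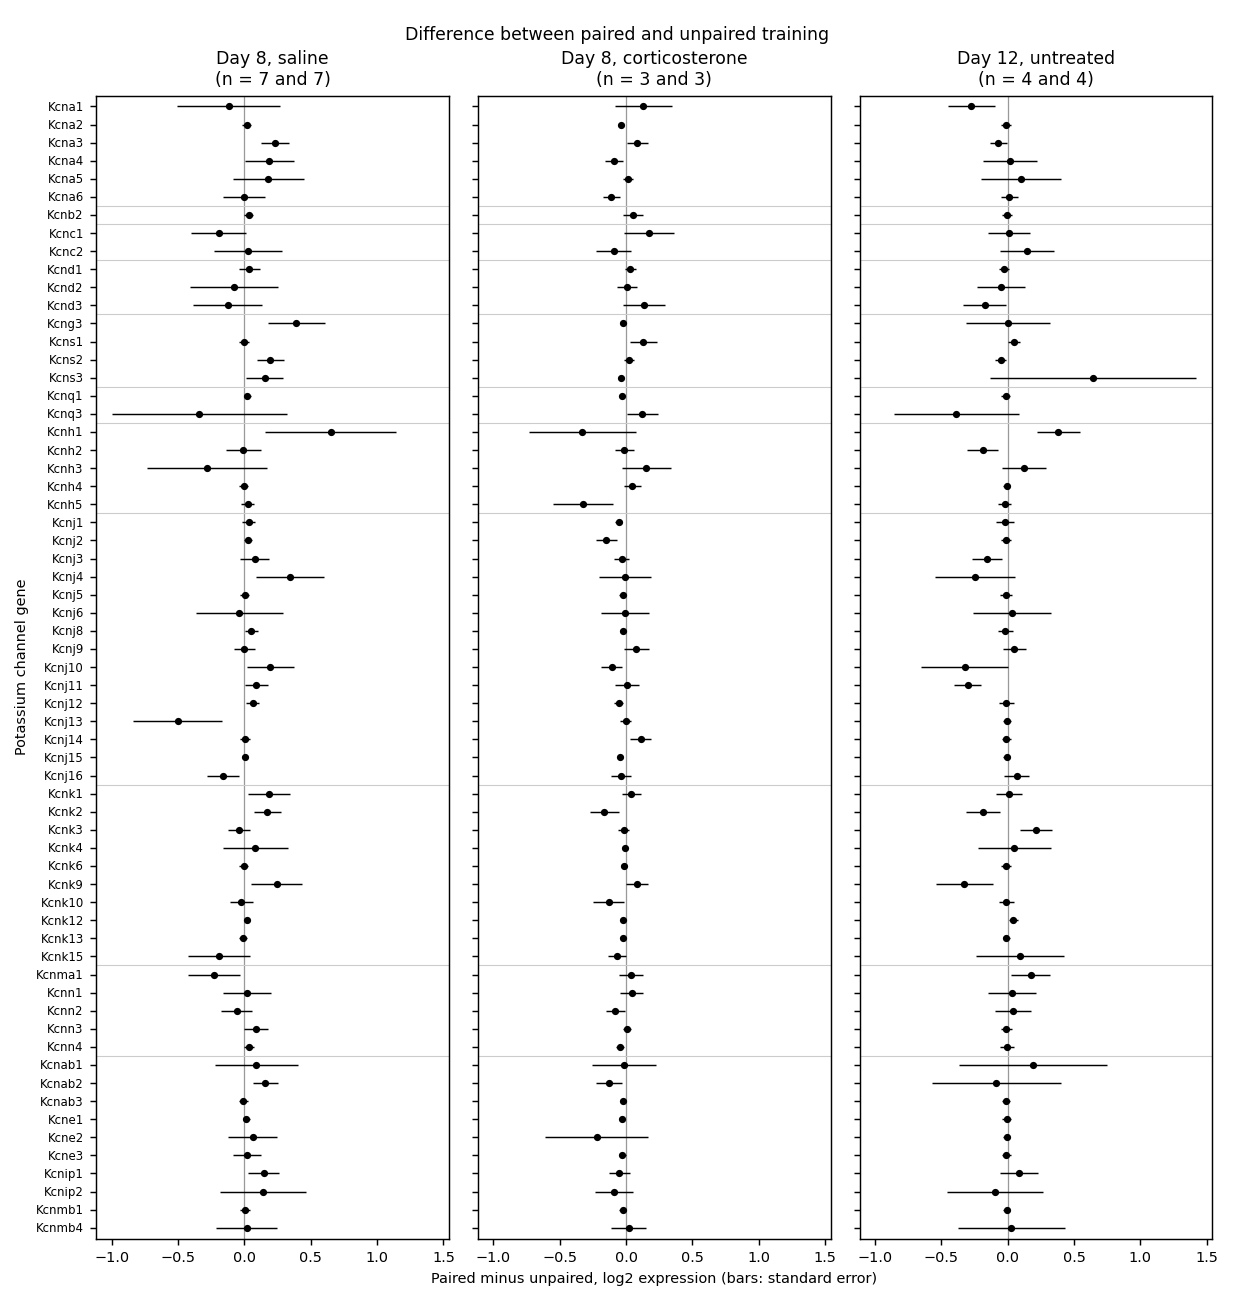
Paired minus unpaired difference on the log2 scale, with the standard error as a bar, for 63 of the 66 genes by subfamily in the 3 conditions (7, 3 and 4 arrays per group). Kcnh1 lies at 0.65 in saline, -0.33 in corticosterone and 0.38 in day 12 pups, and 0 genes were called.

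The pairing effect was compared between conditions by interaction terms in limma. For 0 of the 66 genes did it differ between corticosterone and saline (0.0063% of all probe sets), between day 12 and saline (0%) or between day 12 and corticosterone (0%). At an unadjusted p under 0.05 there were 2, 3 and 0 of the genes, and 98, 87 and 43 probe sets. Kcnj11 had the lowest p of them, between day 12 and saline, with a difference of -0.39 (SE 0.14, limma adjusted p = 0.999639).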

How the data were processed

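Amygdala RNA of 28 samples was measured on Affymetrix arrays. Per the submitters' processing notes, RMA and GCRMA were used, with versions not given in the sources used here. The deposited sample values are on a log2 scale, and array medians differ by condition, as above. The authors' deposited rank product tables hold, per the file headers, a rank product score, a fold (ratio) and a percentage of false predictions (pfp) with its p-value per probe set. Symbols were taken from these tables. All 15866 probe sets were tested.

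Across conditions, log2 values were turned into within-array percentiles and tested in limma 3.58.1 (R 4.3.3), each array design apart, with training as a covariate and Benjamini-Hochberg adjustment (threshold 0.05). Paired and unpaired arrays were compared by a rank product test with 100 shuffles (Python 3.11.15, numpy 2.4.6, pandas 2.3.3; pfp threshold 0.05), and by limma. Scripts were tested on simulated data. Figures were drawn with matplotlib 3.10.9. The number of arrays limits the precision.

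Samples of the same number in the labels deviated together in saline (correlations 0.537 to 0.860, 7 of 7 over 0.1) and day 12 pups (0.598 to 0.734, 4 of 4), and not with corticosterone (-0.283 to 0.0434). The same-numbered sample was the best match in both directions for 2 of 7 numbers in saline and 2 of 4 at day 12. Same-numbered samples also share an array design, so these correlations do not show that single samples were paired. The numbers were used as a block in an alternative run. With this block 106 probe sets and 1 potassium channel gene (Kcnh1) were called in saline, and 25 and 0 at day 12.

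Named genes were those called alike on both designs (up to the 14 largest per direction), up to 8 called per direction between treatments, and the 3 smallest rank products per direction in each pairing comparison, with others named for their role in a subfamily. Some genes that entered the counts are not reported here by name. Alternatives were a block, other scales, a filter at log2 4, limma and leaving out each array. The genes and lists were chosen with earlier results of these data known.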

Additional observations from a re-analysis of the deposited data

Results flagged for a closer look

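In 10 of 74 groups of 4 to 10 arrays that were looked at for the named genes (13.5%), 1 array stood apart from the others by Dixon's criterion, which flags about 1 in 20 groups by chance. On the log2 scale, Kcnq3 read 2.468 in saline paired replicate 2 (others 5.595 to 7.013) and 4.17 in saline unpaired replicate 2 (others 6.075 to 7.23), the same replicate number in both groups. The other 8 are percentiles on the small design. In saline, Kcns3 read 32.93 in paired replicate 2 (others 8.729 to 21.49), Kcnj10 read 36.71 in paired replicate 1 (others 12.48 to 14.83) and Kcng3 read 36.4 in paired replicate 1 (others 12.66 to 20.12). With corticosterone, Kcna1 read 39.74 (others 28 to 31.79) and Kcnk4 14.77 (others 13.15 to 13.75) in paired replicate 1, Kcns3 8.15 in unpaired replicate 2 (others 7.021 to 7.318) and Kcnj10 20.33 in unpaired replicate 3 (others 11.15 to 14.42). At day 12, Kcnj10 read 43.22 in unpaired replicate 2 (others 35.94 to 36.51).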

How the results depend on the processing

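In saline, 28 probe sets and 0 genes were called in the main test. The replicate block gave 106 and 1, pairs within a design called 1 gene, the log2 filter gave 13 probe sets, and limma gave 0 without and 0 with the block. With corticosterone (4 probe sets), limma gave 0 and 0. At day 12 (8 probe sets), the block gave 25, pairs within a design 35, and limma 0 and 0. Between ages, the log2 filter left 5245 and 6687 probe sets called on the small and large design, with 21 and 24 of the genes, and corticosterone pups as the day 8 reference gave 12966. On both designs the filter left 13 genes higher and 5 lower, 5 higher and 1 lower by 10 points, the replicate block left 5 higher by 10 points, and log2 minus the array median called 29 lower. Between treatments, log2 minus the array median called 53 genes, and the filter left 5217 probe sets and 15 genes. The block left 0 of 1 interaction call between corticosterone and saline. The filter tests fewer probe sets. Otherwise the cause was not tested.

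Signs reversed for Kcne1 on the small design against corticosterone pups (2.96), and between treatments on log2 minus the array median for Kcnk4 (0.64), Kcnd1 (0.81), Kcna5 (0.82) and Kcnma1 (0.38). Without 1 array, uncalled pairing differences changed sign for Kcnq3 in saline (range -0.69 to 0.24), for Kcnh3 (-0.0168 to 0.32), Kcne2 (-0.49 to 0.10) and Kcnh1 (-0.60 to 0.18) with corticosterone, and for Kcnab1 at day 12 (-0.24 to 0.50).

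Without 1 array at a time, calls ranged from 12 to 33 probe sets (0 to 1 genes) in saline, 1 to 31 (0 to 0) with corticosterone and 1 to 26 (0 to 1) at day 12. They ranged from 7183 to 8662 (40 to 45 genes) and 9895 to 10272 (46 to 51) between ages on the small and large design, and from 9243 to 10229 (34 to 36) between treatments. On both designs 25 to 29 genes were higher and 9 to 12 lower, 7 to 9 and 2 to 2 by 10 points. Interaction calls were 0 to 4, 0 to 0 and 0 to 3, with 0 genes. Kcna6 kept its small-design call in 13 of 14 runs (highest adjusted p by limma 0.0527).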
